A study of Homo sapiens with 10 samples.

Results

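NCI-H2110, an established human non-small cell lung cancer line that carries the p53 mutant R158P, was set against the 2 other lines of the study, NCI-H2087 (p53 V157F) and NCI-H441 (p53 R158L). RNA sequencing counts were available for 10 libraries, of which 2 came from NCI-H2110, 1 after a control siRNA and 1 after an siRNA against p53. The other 8 libraries came from NCI-H2087 and NCI-H441, each with 2 control siRNA and 2 p53 siRNA libraries. A gene was taken as distinctive of NCI-H2110 when both of its libraries lay on the same side of all 8 others, in CPM, the count scaled to a common library size. Of 17978 genes tested, 8349 (46.4%) met this rule. They divided into 4368 genes above all 8 others (24.3%) and 3981 below (22.1%).

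All 3 lines are tumour cell lines that carry mutant p53, and no line with wild-type p53 or without p53 was among these libraries. Each mutation occurs in 1 line, so that line and mutation cannot be told apart. RNA was extracted with an RNeasy Plus kit and made into libraries with a Lexogen mRNA kit, per the labels. The sample titles call the p53 siRNA arm a knockout, whereas the protocol names an siRNA, and the arm is described here by the siRNA. Nothing in the labels says whether replicate libraries came from separate cultures, and NCI-H2110 has 1 library per arm. Each p-value thus reflects just the spread among these libraries, part of which may be technical. In the other lines, control and p53 siRNA libraries of the same number deviated together, and both NCI-H2110 libraries carry number 2. The test took all 10 libraries as independent, so its p-values and standard errors may be too small.

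Lung adenocarcinomas keep traces of the airway or alveolar cells they resemble. Goblet cells secrete gel-forming mucins, which are folded with the help of disulfide isomerases of the AGR family, whereas alveolar type 2 cells make surfactant under the control of the transcription factor NKX2-1. NRF2 is a transcription factor that is held down by KEAP1 and drives genes of glutathione, NADPH and carbonyl metabolism, and interferon-stimulated genes are driven through a complex that holds STAT2 and IRF9.

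A line difference was tested with edgeR's quasi-likelihood test on all 10 libraries, as the log2 difference of NCI-H2110 from the mean of the other 2 lines at equal siRNA. A gene is called higher or lower here when it met the rule above and its Benjamini-Hochberg adjusted p was below 0.05. Differences are given as log2 values ± standard error, positive where NCI-H2110 is higher. The standard error was derived from the test, as the absolute difference divided by the square root of its F statistic. By this definition 4214 genes were higher (23.4% of those tested) and 3857 lower (21.5%). At least 2 log2 apart were 1954 of the higher genes (10.9% of all tested) and 1593 of the lower genes (8.86%). Without the rule, 10741 genes (59.7%) had an adjusted p below 0.05. The median log2 difference over all genes tested was −0.02. These shares are the background against which each gene list below is read, since a list with about 23.4% higher and 21.5% lower members is like the whole table. A member that passed the filter on low counts only through the line in which it is high had to differ, so these counts describe the tested members and not the whole lists.

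By correlation, NCI-H2110 stood farther from the other lines than they stood from each other. Across 9332 well-expressed genes, Pearson's r of log2 CPM was 0.984 between the 2 NCI-H2110 libraries, and its median was 0.655 between NCI-H2110 and NCI-H2087, 0.667 between NCI-H2110 and NCI-H441 and 0.802 between NCI-H2087 and NCI-H441. These correlations run across genes, which are not independent replicates, and are given as a description. With each line cut to its 2 replicate 2 libraries, 4793 genes (26.7%) lay above and 4762 (26.5%) below the 4 libraries of the other lines in NCI-H2110. The same counts were 3463 (19.3%) and 3004 (16.7%) in NCI-H2087, and 3593 (20%) and 3191 (17.7%) in NCI-H441.

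**Figure D1:**
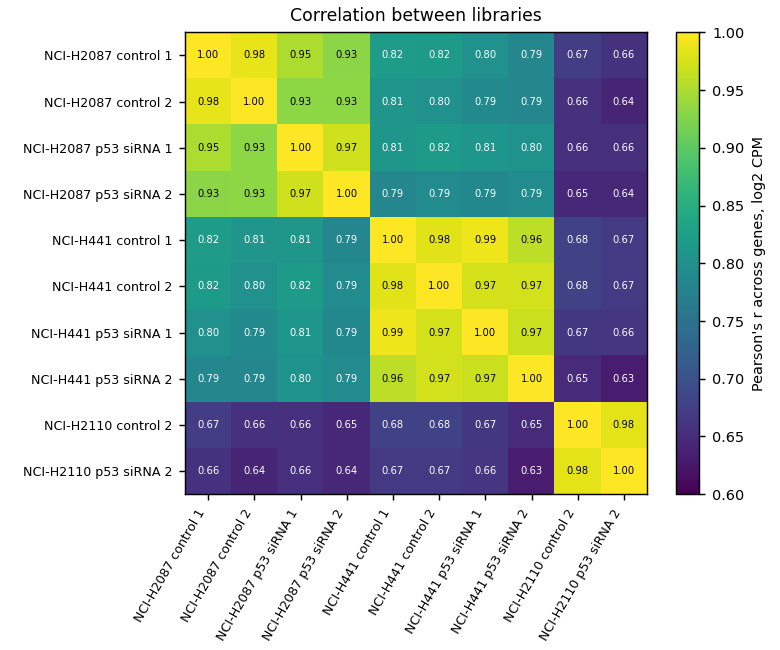
Pearson's r of log2 CPM across 9332 genes for each pair of the 10 libraries, on a colour scale from 0.6 to 1, with the libraries in the order NCI-H2087, NCI-H441 and NCI-H2110 on both axes. The 2 NCI-H2110 libraries correlate at 0.984 with each other, and at 0.633 to 0.678 with the libraries of the other lines.

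Library totals ran from 18336672 to 25810934 counts, with 25638101 in the NCI-H2110 control library and 23353257 in its p53 siRNA library. Nuclear pseudogenes of mitochondrial genes took 11.8% and 12% of the counts in NCI-H2110, against 2.25% to 5.74% in the other 8 libraries, and the 10 largest genes took 13.7% and 13.9% against 6.61% to 8.88%. What part this has in other results was not tested. MTCO1P40, one of these pseudogenes, was among the 6 genes of highest CPM that were at least 2 log2 higher, at 1621 and 1808 CPM in NCI-H2110 against 272 to 607 CPM with median 350.0 in the others. Reads of such copies cannot be assigned with certainty.

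Each given marker of the line lay above all 8 other libraries, which is the rule itself, so the values below are a description. MUC5B, a gel-forming mucin of airway mucus (chromosome 11), stood at 637 and 753 CPM in the control and p53 siRNA libraries of NCI-H2110. In NCI-H2087 it stood at 0.413, 0.905, 0.940 and 0.465 CPM and in NCI-H441 at 0, 0, 0.164 and 0.0409 CPM, with the 2 control libraries named first here and below. The level in NCI-H2110 was 1021-fold that in NCI-H2087. AGR2, a disulfide isomerase of secretory cells (chromosome 7), stood at 1431 and 1135 CPM in NCI-H2110, at 216, 124, 110.2 and 58.6 CPM in NCI-H2087 and at 163, 138, 137 and 92.7 CPM in NCI-H441. It was thus well expressed in every library, and was higher in NCI-H2110 by 3.34 ± 0.23 log2 (edgeR adjusted p = 1.2e-07). LINC00707, a long intergenic noncoding RNA (chromosome 10), stood at 96.4 and 135 CPM in NCI-H2110 and at 2.22, 1.73, 7.91 and 29.3 CPM in NCI-H2087, whereas NCI-H441 had 2 counts in its 4 libraries. The p53 siRNA libraries of NCI-H2087 were the nearest to NCI-H2110, and still below it.

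**Figure D2:**
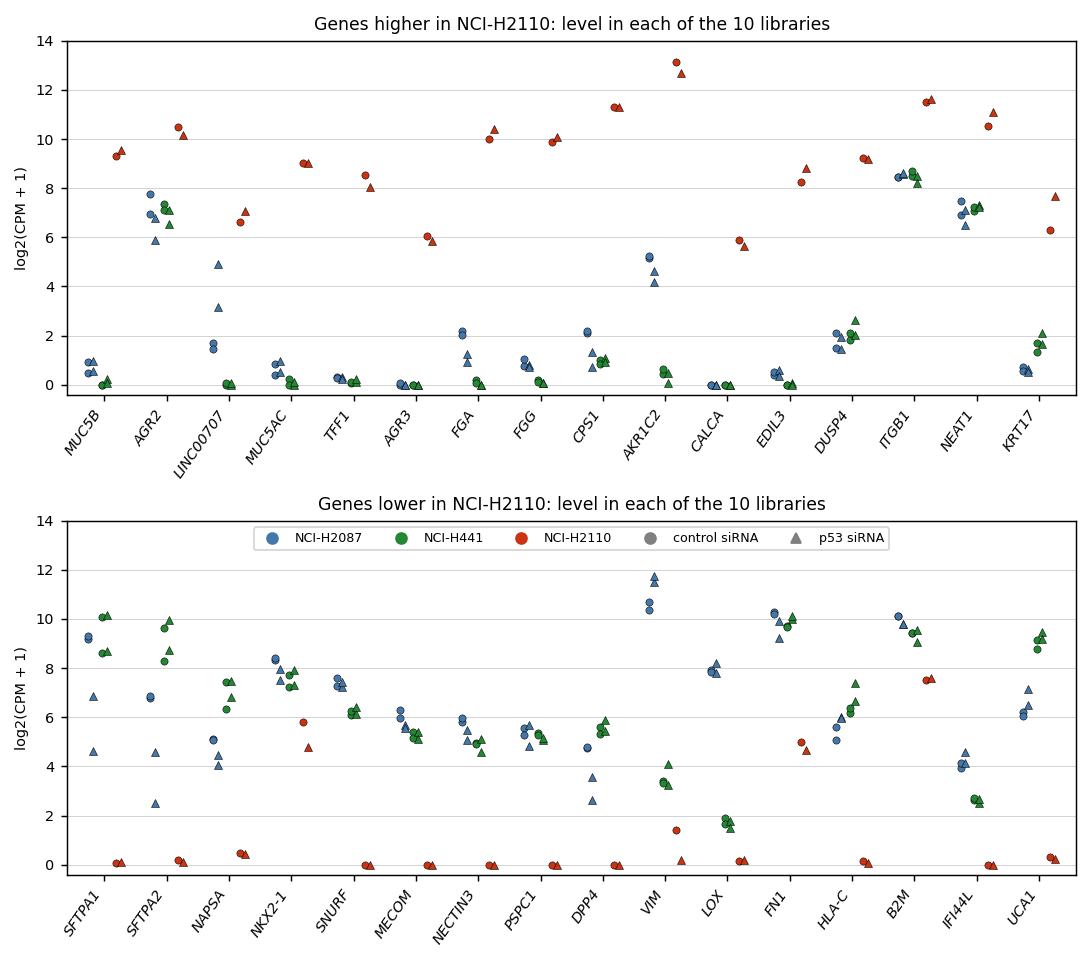
Level of 32 genes as log2(CPM + 1) in each of the 10 libraries, with circles for control siRNA, triangles for p53 siRNA and 1 colour per line. In the upper panel both NCI-H2110 points lie above all others for every gene, and in the lower panel both lie under all others.

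Genes of secreted mucus were higher in NCI-H2110. Of 25 goblet and mucin genes tested (32 listed), 13 were higher and 2 lower, with a median of 2.35 log2, or 2.06 with undetected genes set at the limit of 3 counts. MUC5AC, the other gel-forming mucin of the airway surface, stood at 517 and 515 CPM, against 0 to 0.983 CPM with median 0.237 in the other libraries. TFF1, a trefoil peptide secreted with mucins, stood at 366 and 263 CPM against 0.0429 to 0.258 CPM with median 0.166, and AGR3, a close relative of AGR2, at 65.1 and 56.2 CPM with 1 count in the 8 others together. AGR3 was therefore at least 471-fold higher than in NCI-H441, where it had 0 counts. The membrane-bound mucins MUC16 (185 and 293 CPM against 0.127 to 12.7 CPM with median 1.89) and MUC4 (379 and 448 CPM against 18.5 to 270.4 CPM with median 66.4) were higher too.

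SPDEF, the transcription factor of goblet cells, was higher by 2.35 ± 0.39 log2, with 18.3 and 14.9 CPM against 1.59 to 11.4 CPM with median 2.95. CREB3L1, a membrane-bound factor of secretory capacity, was higher by 2.11 ± 0.21 log2. ERN2, the stress sensor of mucous cells, stood at 11.5 and 10.96 CPM in NCI-H2110, with 0 counts in NCI-H2087 and at most 0.123 CPM in NCI-H441. FOXA3, another factor on the goblet list, had 0 counts in both NCI-H2110 libraries and at most 4 in any other. Not every mucin was high: MUC1 stood at 289 and 313 CPM in NCI-H2110, within the range of NCI-H441 (252 to 474 CPM), and MUC21 was at 0.0787 and 0.173 CPM against 499 to 900.2 CPM in NCI-H441. The intestinal and gastric mucins MUC2 and MUC6 had at most 5 counts in any library, and WFDC2, a secreted protease inhibitor of airway cells, was lower (0.236 and 0.0867 CPM against 2.24 to 132 CPM with median 36.2).

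A further group of transcripts is known from liver rather than lung. Of 16 gut and liver epithelial genes tested (31 listed), 5 were higher and 3 lower, with a median of −0.03 log2. FGA and FGG, the alpha and gamma chains of fibrinogen, stood at 1013 and 1361 CPM (FGA) and at 928 and 1076 CPM (FGG) in NCI-H2110. The other libraries had 0 to 3.51 CPM with median 0.508 for FGA and 0.0409 to 1.09 CPM with median 0.381 for FGG. FGB, the beta chain, was higher as well, at 10.6 and 10.5 CPM against 0.0410 to 2.63 CPM with median 0.484. CPS1, the mitochondrial enzyme that starts the urea cycle, stood at 2562 and 2561 CPM against 0.634 to 3.62 CPM with median 1.05, which is 1121-fold the level in NCI-H2087. In contrast, SERPINA1, the hepatic protease inhibitor antitrypsin, was lower at 0.0394 and 0.173 CPM against 11.8 to 223 CPM with median 60.2, and HNF4A, the hepatocyte transcription factor, had at most 0.829 CPM in any library. Albumin, APOB and TTR had at most 2 counts in every library. MUC13, which also belongs to the mucin list, and FGB were the other 2 higher members.

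NRF2 targets were the list with the largest share of higher members among the lists of 10 or more tested genes. Of 33 tested, 20 were higher and 2 lower, with a median of 1.35 log2. AKR1C2, an aldo-keto reductase, had the highest CPM of all genes at least 2 log2 higher, at 9073 and 6554 CPM in NCI-H2110. It stood at 35.01, 37.2, 17.4 and 23.6 CPM in NCI-H2087 and at 0.343, 0.555, 0.0410 and 0.409 CPM in NCI-H441. Its neighbours AKR1C1 (787 and 737 CPM against 0.172 to 27.3 CPM with median 8.91) and AKR1C3 (644 and 601 CPM against 3.11 to 78.03 CPM with median 25.7) were higher too. Since AKR1C1 and AKR1C2 are near-identical, how their reads were shared between them is uncertain.

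PGD, an enzyme of the pentose phosphate pathway that supplies NADPH, was higher by 2.61 ± 0.16 log2 and the malic enzyme ME1 by 1.22 ± 0.15 log2, whereas TKT and TALDO1 of the pentose phosphate pathway were not called. GPX2, a glutathione peroxidase of epithelia, stood at 149 and 82.8 CPM against 0.0858 to 26.4 CPM with median 3.96. SRXN1, which repairs oxidized peroxiredoxin, was higher by 2.79 ± 0.14 log2, and ABCC2, an efflux pump for conjugates, by 5.58 ± 0.17 log2. SLC7A11, the cystine importer, was higher by 1.35 ± 0.27 log2 and GCLM, the modifier subunit of glutathione synthesis, by 1.01 ± 0.22 log2. NQO1 did not pass, at 973 and 718 CPM against 539.9 to 915 CPM with median 708, and the glutathione synthesis subunit GCLC lay within the range of NCI-H2087 (336 and 274 CPM). The haem oxygenase HMOX1 was lower at −2.26 ± 0.42 log2, as was the ferritin heavy chain FTH1 at −0.89 ± 0.24 log2. NFE2L2, which encodes NRF2 itself, did not pass (298 and 349 CPM against 242 to 574 CPM with median 398), while its inhibitor KEAP1 was higher by 1.28 ± 0.19 log2.

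The core of the antioxidant response element, TGACNNNGC, was looked for on both strands in promoter windows from 250 bases before to 50 after the RefSeq start (GRCh38.p14). Windows were matched for 23 of the 33 members, too few for a comparison with all promoters, of which 3702 of 27305 (13.6%) hold the letters. Among the 14 matched higher members 7 held a match, and among the 9 not called higher 1 did. The 4 with the smallest p whose match lies before the start are shown 5′ to 3′ on the gene's strand with the match in capitals, to show which promoters of higher genes carry these letters. They are GPX2 (chr14:64942848-64942877, minus strand), PGD (chr1:10398853-10398882, plus), CYP4F11 (chr19:15935004-15935033, minus) and TXNRD1 (chr12:104215670-104215699, plus). The letters describe the window and do not show a bound site.
GPX2: acctgtttttGCTAAGTCAtcctggggatg
PGD: cctcgccgggGCAATGTCAtctaggtgctc
CYP4F11: ctgtgcccatGCTGTGTCAccctgagctgg
TXNRD1: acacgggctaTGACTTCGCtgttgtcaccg

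Other enzymes of xenobiotic metabolism were higher in the same direction, with 15 of 26 tested members higher (30 listed), 1 lower and a median of 1.64 log2. UGT1A6, a phenol glucuronosyltransferase, stood at 317 and 301 CPM against 0 to 19.1 CPM with median 7.88. It shares its last exons with the other UGT1A genes, so the split between them is uncertain. CYP2S1 stood at 71.3 and 31.2 CPM against 0 to 3.76 CPM with median 1.24 and GSTM3 at 24.6 and 32.9 CPM against 0 to 2.63 CPM with median 0.553. The aryl hydrocarbon receptor gene AHR was higher by 1.78 ± 0.14 log2, with 995 and 1088 CPM against 205 to 397 CPM with median 302. Its targets CYP1B1 (648 and 596 CPM against 17.5 to 181 CPM with median 45.7), CYP1A1 (16.3 and 2.25 CPM against 0.0410 to 1.47 CPM with median 0.272) and the repressor AHRR (14.7 and 11.7 CPM against 0.0423 to 1.27 CPM with median 0.567) were higher as well. CYP1A1 differed between the 2 NCI-H2110 libraries, and no replicate is at hand to set that difference against. AOX1, an aldehyde oxidase, was the lower member (0.590 and 0.477 CPM against 1.24 to 3.22 CPM with median 1.71).

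**Figure D3:**
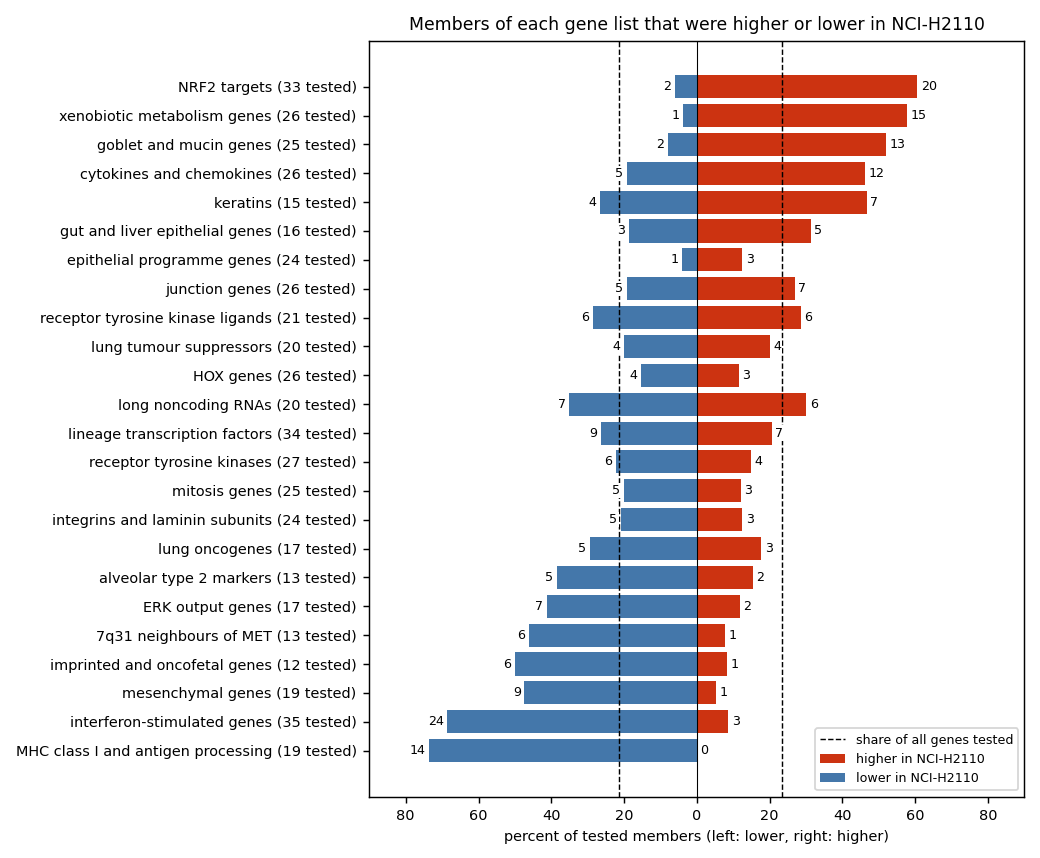
Percent of the tested members of each list of 10 or more tested genes that were higher (bars to the right) or lower (bars to the left) in NCI-H2110, with the number of genes at each bar and dashed lines at the shares over all genes tested (23.4% and 21.5%). NRF2 targets extend farthest to the right with 20 of 33, and genes of MHC class I and antigen processing farthest to the left with 14 of 19.

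Of 19 mesenchymal genes tested (24 listed), 9 were lower and 1 higher, with a median of −4.36 log2, or −1.90 with undetected genes at the limit of 3 counts. VIM, the intermediate filament of mesenchymal cells, stood at 1.69 and 0.130 CPM in NCI-H2110, at 9.57, 9.098, 8.56 and 15.96 CPM in NCI-H441 and at 1332, 1672, 2932 and 3407 CPM in NCI-H2087. FN1, fibronectin of the matrix, was lower at −5.16 ± 0.34 log2 (30.6 and 24.3 CPM against 598 to 1258 CPM with median 995). LOX, which crosslinks collagen, stood at 0.118 and 0.130 CPM, below both NCI-H441 (1.800 to 2.75 CPM) and NCI-H2087 (224 to 297 CPM). The repressors of epithelial genes ZEB1 (0.354 and 0.823 CPM against 6.35 to 51.04 CPM with median 19.9) and SNAI2 (0.157 and 0.303 CPM against 5.88 to 21.5 CPM with median 10.9) were lower. COL1A1 was the only higher member, at 38.8 and 48.7 CPM against 12.1 to 32.5 CPM with median 17.9.

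Epithelial genes did not show the mirror image. Of 24 tested, 3 were higher (the serine protease inhibitor SPINT2, the trafficking protein RAB25 and the tight junction protein MARVELD3) and 1, the splicing factor ESRP2, was lower, with a median of 0.40 log2. With the control siRNA libraries alone 5 were higher and 2 lower, and without the NCI-H2110 p53 siRNA library 5 were higher and 1 lower. CDH1, which encodes E-cadherin, stood at 86.4 and 183 CPM, within the range of NCI-H2087 (82.6 to 206 CPM) and below NCI-H441 (484 to 1416 CPM). EPCAM stood at 295 and 307 CPM, above NCI-H2087 (126 to 206 CPM) and near NCI-H441 (299 to 325 CPM).

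Junction genes were near the background, with 7 of 26 tested members higher (29 listed), 5 lower and a median of −0.24 log2. NECTIN3, an adhesion molecule of adherens junctions, had 0 counts in both NCI-H2110 libraries and 22.8 to 60.8 CPM with median 33.2 in the others. It was at least 371-fold lower than in NCI-H2087 and at least 222-fold lower than in NCI-H441. CDH11, a mesenchymal cadherin, stood at 3 counts in all against 69.9 to 239 CPM with median 202. The tight junction scaffold TJP1 (152 and 153 CPM against 539.5 to 720.0 CPM with median 585) and occludin OCLN (63.4 and 54.3 CPM against 101 to 193 CPM with median 187) were lower. The gap junction genes GJA1 (401 and 354 CPM against 0.286 to 82.2 CPM with median 31.6) and GJB2 (21.8 and 22.7 CPM against 0 to 0.258 CPM with median 0.188) were higher, as were the desmosomal plaque protein DSP (by 2.40 ± 0.17 log2) and the claudin CLDN10 (by 3.74 ± 0.31 log2). The lower junction genes numbered 8 with the p53 siRNA libraries alone, and 8 without NCI-H2087 p53 siRNA replicate 2.

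Several keratins of stratified and wounded epithelium were higher, and KRT8 and KRT18 of simple epithelium were lower. Of 15 tested (20 listed), 7 were higher and 4 lower, with a median of 0.87 log2. The median turned to −0.26 without the NCI-H2110 control library (5 higher and 4 lower) and to −0.07 with the p53 siRNA libraries alone (6 and 5). KRT17, a keratin of basal and wounded epithelium, stood at 78.00 and 206 CPM against 0.423 to 3.35 CPM with median 1.11. KRT6A stood at 33.4 and 84.7 CPM against 0.423 to 30.4 CPM with median 3.47, and shares reads with KRT6B. KRT8 and KRT18, which form filaments together, were lower at −1.45 ± 0.27 and −1.19 ± 0.24 log2. KRT4 was lower at 3.11 and 1.43 CPM against 22.4 to 643 CPM with median 153.

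Of 9 basal and squamous markers tested (14 listed), 5 were higher and 1 lower, with a median of 2.45 log2, or 1.69 with undetected genes at their limit. KRT17 and KRT6A, given above with the keratins, are counted here again, so the 2 lists are not separate. TP63, the transcription factor of basal cells, was higher by 2.45 ± 0.40 log2 (45.2 and 58.5 CPM against 1.69 to 24.4 CPM with median 15.3), and the desmocollin DSC3 by 4.79 ± 0.26 log2. SOX2, often gained in squamous cancers, was lower, with 1 count in NCI-H2110 and 3.07 to 47.3 CPM with median 6.76 in the others. The defining basal keratins KRT5 and KRT14 had at most 1 and 6 counts in any library.

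Lower genes of the alveolar type 2 cell included SFTPA1, SFTPA2, NAPSA, the lipid enzyme LPCAT1 and the lipid transporter ABCA3. Of 13 tested (15 listed), 5 were lower and 2 higher, with a median of −1.34 log2 and −0.75 with undetected genes at their limit. SFTPA1, which encodes surfactant protein A, had 1 and 2 counts in NCI-H2110 (0.0394 and 0.0867 CPM). It stood at 584, 641, 115 and 23.8 CPM in NCI-H2087, where the p53 siRNA libraries were the lowest, and at 1081, 393, 1131 and 415 CPM in NCI-H441. SFTPA2 followed at 0.157 and 0.0867 CPM against 4.65 to 999.6 CPM with median 215, although reads of the 2 near-identical genes may be exchanged. NAPSA, the protease that processes surfactant protein B, was lower at −7.29 ± 0.54 log2. NKX2-1, the lineage factor of the alveolus and of many lung adenocarcinomas, was detected at 55.2 and 26.95 CPM, below 150.2 to 338 CPM with median 227 in the others. SFTPD, which encodes surfactant protein D (1.73 and 1.39 CPM against 0 to 0.123 CPM with median 0.0185), and the protease gene CTSH were the 2 higher members. Without the NCI-H2110 p53 siRNA library 1 member was higher. SLC34A2, the phosphate carrier of the same cells, lay between NCI-H2087 and NCI-H441 (57.3 and 52.00 CPM).

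Defining markers of other airway cells were low. The club cell genes SCGB1A1 and SCGB3A1 had at most 5 and 0 counts per library, and FOXJ1, the factor of ciliated cells, stood at 0.590 and 0.823 CPM in NCI-H2110, between the lines. None of the 2 club cell genes tested (6 listed) was called, and of 5 ciliated cell genes tested (9 listed) RSPH1, of the ciliary axoneme, was higher (1.65 and 1.08 CPM). Of 6 neuroendocrine markers tested (14 listed), 4 were higher and 0 lower. With DESeq2, or without NCI-H2087 control replicate 2, 3 were higher. Of the 4, DDC (1.46 and 1.13 CPM against 0 to 0.598 CPM) and SCG2 (0.472 and 0.520 CPM against 0 to 0.386 CPM) were low in every library. CALCA, which encodes calcitonin and its gene-related peptide, stood at 57.7 and 48.8 CPM and had 0 counts in all 8 others, so that it was at least 344-fold higher than in NCI-H2087 and at least 414-fold higher than in NCI-H441. UCHL1, a neuronal deubiquitinase, stood at 103 and 86.8 CPM against 32.7 to 51.1 CPM in NCI-H2087. The neuroendocrine factors INSM1 and NEUROD1 had 0 counts in every library. In bulk samples fewer cells of a type and less RNA per cell cannot be told apart.

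Among 5 fibroblast markers tested (9 listed), COL1A1 was higher and LUM lower, and among 5 immune and endothelial markers tested (10 listed) CD14 was higher and KDR and CD68 lower. DCN and POSTN had at most 1 count and PTPRC and CD3E at most 5 in any library, so these markers of fibroblasts and leukocytes were near 0 throughout. COL1A1 of the fibroblast list, in contrast, was detected in every library. The summed level of the fibroblast list was 41.0 and 51.5 CPM in NCI-H2110 against 14.8 to 70.6 CPM in the others, and that of the immune and endothelial list 22.5 and 35.7 CPM against 87.0 to 371 CPM.

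The lineage transcription factors tested (34 of 39 listed) gave 7 higher and 9 lower genes, shares near the background in both directions, with a median of −0.30 log2. FOXA1 stood at 615 and 591 CPM, just above all others but short of the threshold (edgeR adjusted p = 0.0721), while FOXA2 had 0 counts in NCI-H2110 against 0.296 to 1.54 CPM with median 0.888. HMGA2, a chromatin protein of embryonic cells, stood at 1.34 and 1.65 CPM against 41.3 to 538 CPM with median 100.3. SOX9, a factor of distal airway progenitors, was lower at −4.29 ± 0.70 log2. IRX3, a homeobox factor, was higher by 6.12 ± 0.25 log2, and the hindlimb and foregut factor PITX1 by 2.69 ± 0.23 log2. Of 26 HOX genes tested (36 listed), 3 were higher and 4 lower. Genes of the HOXB cluster were nearly undetected in NCI-H2110: 6 of the 9 tested had 0 counts, among them HOXB3, which stood at 14.9 to 30.1 CPM in NCI-H2087 and 1.19 to 2.66 CPM in NCI-H441. NCI-H441 was also low across the cluster, with 0 counts of HOXB5, HOXB6, HOXB7 and HOXB13, so that this was not a trait of NCI-H2110 alone.

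ITGB1, the beta subunit shared by most integrins of the matrix, had the second highest CPM of the genes at least 2 log2 higher. It stood at 2918 and 3172 CPM in NCI-H2110, at 349, 354, 379.8 and 393 CPM in NCI-H2087 and at 359, 414, 363 and 294 CPM in NCI-H441, a difference of 3.07 ± 0.13 log2 (edgeR adjusted p = 2.02e-09). Its laminin-binding partner ITGA6 was higher by 2.84 ± 0.22 log2 and the fibronectin-binding ITGA5 by 0.72 ± 0.23 log2. The collagen-binding ITGA1 was lower at −4.97 ± 0.42 log2. Of all 24 integrin and laminin genes tested (28 listed), 3 were higher (12.5%, against 23.4% of all genes) and 5 lower (20.8%, against 21.5%).

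Of 27 receptor tyrosine kinases tested (32 listed), 4 were higher (14.8%) and 6 lower (22.2%), with a median of −0.17 log2. MET, the receptor of hepatocyte growth factor, was lower at −2.25 ± 0.20 log2, with 321 and 399.6 CPM against 886 to 2942 CPM with median 1810.2. EPHA4, an ephrin receptor, had 0 counts against 7.901 to 20.7 CPM with median 17.4, and MERTK, a receptor of the TAM family, stood at 0.315 and 0.867 CPM against 21.7 to 60.3 CPM with median 35.4. INSR, the insulin receptor, was higher by 3.14 ± 0.19 log2, and IGF1R by 1.12 ± 0.23 log2, and the fibroblast growth factor receptor FGFR3 stood at 4.604 and 3.25 CPM against 0 to 0.670 CPM with median 0.113. EGFR stood at 250.3 and 355 CPM, at the lower end of the others (252 to 977 CPM with median 442). Of 13 genes around MET on 7q31 tested (15 listed), 6 were lower and 1 higher, with a median of −0.98 log2. Among them the caveolar coat gene CAV1 (132 and 122 CPM against 256 to 1366 CPM with median 861) and the focal adhesion gene TES (lower at −1.56 ± 0.19 log2) lay with MET, while LSM8 and MDFIC did not pass.

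Of 21 ligands of receptor tyrosine kinases tested (22 listed), 6 were higher and 6 lower. That is 28.6% each way, against 23.4% and 21.5% of all genes. Those of the EGF family named here differed in both directions. EREG (epiregulin) was lower at −3.70 ± 0.30 log2, with 31.3 and 69.5 CPM against 351 to 781 CPM with median 691, and AREG (amphiregulin), BTC (betacellulin) and HBEGF were lower at −2.39 ± 0.41, −2.16 ± 0.18 and −1.38 ± 0.21 log2. EPGN (epigen) stood at 24.7 and 57.6 CPM against 0 to 0.0429 CPM with median 0.0205 and NRG4, a neuregulin that binds ERBB4, at 19.99 and 22.4 CPM against 0 to 0.155 CPM with median 0.0215. EGF itself was higher by 2.98 ± 0.29 log2. TGFA did not pass (80.1 and 85.8 CPM).

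Output genes of the ERK pathway were mostly lower or not called. Of 17 tested, 7 were lower and 2 higher, with a median of −1.36 log2. DUSP4, a nuclear phosphatase that switches off ERK, stood at 603 and 579.5 CPM in NCI-H2110, at 1.805, 3.35, 1.75 and 2.83 CPM in NCI-H2087 and at 2.53, 3.33, 3.03 and 5.28 CPM in NCI-H441. The level in NCI-H2110 was 243-fold that in NCI-H2087 and 167-fold that in NCI-H441 (7.65 ± 0.23 log2). DUSP6, the cytoplasmic ERK phosphatase, was lower at −1.37 ± 0.30 log2 and the inhibitors SPRED1 and SPRED2 at −1.91 ± 0.21 and −1.72 ± 0.20 log2. The AP-1 subunit FOSL1 was lower at 22.2 and 23.5 CPM against 76.3 to 756 CPM with median 561. CCND1 did not pass (353 and 304 CPM against 274 to 436 CPM with median 357). With the control siRNA libraries alone, 5 of these genes were higher and 5 lower, and the median was −0.75. Without the NCI-H2110 p53 siRNA library 5 genes were lower.

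Interferon-stimulated genes were lower as a group, with 24 of 35 tested lower, 3 higher and a median of −2.61 log2. IFI44L stood at 0 counts in both NCI-H2110 libraries, at 14.1, 16.4, 16.5 and 22.9 CPM in NCI-H2087 and at 5.24, 5.62, 4.75 and 5.400 CPM in NCI-H441. IFI44, its neighbour on chromosome 1, stood at 0.433 and 0.563 CPM against 6.55 to 104 CPM with median 42.01. IFITM1, which blocks the entry of viruses, was lower at −5.85 ± 0.40 log2, IFIT3 at −4.95 ± 0.54, the helicase DDX60 at −3.81 ± 0.31 and the ubiquitin-like modifier ISG15 at −3.38 ± 0.45. IFITM3 did not pass, at 191 and 186 CPM against 176 to 321 CPM with median 232. Among the transcription factors of the pathway IRF9 and IRF7 were lower at −1.53 ± 0.23 and −3.02 ± 0.40 log2, and STAT2 did not pass. Higher members included OAS1, a sensor of double-stranded RNA (77.9 and 74.2 CPM against 6.38 to 27.3 CPM with median 18.3), and CMPK2, a mitochondrial nucleotide kinase (17.2 and 14.5 CPM against 0.254 to 4.85 CPM with median 2.16).

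The core of the interferon-stimulated response element, 2 GAAA blocks set apart by any 2 bases, was looked for in the same way. Windows were matched for 27 of the 35 members, again too few for a comparison, and 996 of 27305 promoters (3.65%) hold the letters. Of the 18 matched lower members 14 held a match, and of the 9 matched members not called lower 5 did, among them HERC5, OAS3 and IFITM3. The 4 with the smallest p among those with a match before the start are shown as above. They are IFI44 (chr1:78649761-78649790, plus strand), IFI44L (chr1:78620274-78620303, plus), IFITM1 (chr11:313990-314019, plus) and DDX60 (chr4:168318821-168318850, minus).
IFI44: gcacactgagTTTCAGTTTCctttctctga
IFI44L: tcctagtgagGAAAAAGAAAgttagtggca
IFITM1: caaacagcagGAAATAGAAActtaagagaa
DDX60: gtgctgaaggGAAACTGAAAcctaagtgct

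MHC class I genes and the machinery that loads them were lower in 14 of 19 tested cases and higher in 0, with a median of −2.71 log2. HLA-C stood at 0.118 and 0.0433 CPM in NCI-H2110, or 3 and 1 counts, against 32.9 to 168 CPM with median 67.4, and HLA-B at 0.197 and 0.260 CPM against 27.4 to 342 CPM with median 82.8. HLA genes are polymorphic and share sequence, so that their reads may be lost or exchanged in a line whose alleles differ from the reference. What part this has in the HLA values was not tested. B2M, the invariant light chain, was lower at −2.12 ± 0.19 log2, with 181 and 193 CPM against 539 to 1122 CPM with median 811. The immunoproteasome subunits PSMB8 and PSMB9 were lower at −5.62 ± 0.25 and −5.33 ± 0.44 log2, the peptide-loading factor TAPBP at −2.71 ± 0.20 and NLRC5, the transactivator of these genes, at −2.79 ± 0.36. TAP1, a subunit of the peptide transporter, did not pass, with 13.9 and 13.1 CPM against 8.48 to 18.5 CPM with median 13.1. Of 7 MHC class II genes tested (10 listed), HLA-DMA was lower (3 genes with the control siRNA libraries alone), and CD74 had 0 counts in NCI-H2110 against 31.6 to 110.3 CPM in NCI-H441.

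**Figure D4:**
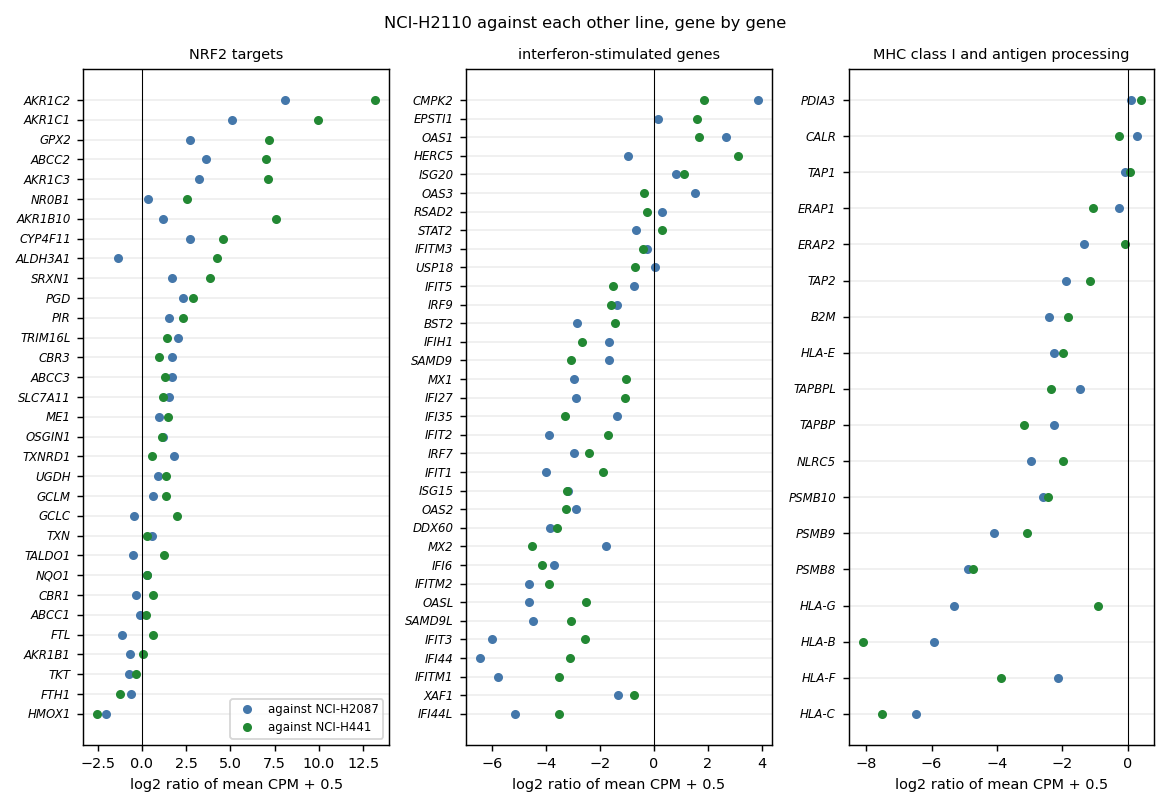
Log2 ratio of the mean CPM in NCI-H2110 to that in NCI-H2087 (blue) and NCI-H441 (green), with 0.5 CPM added to each mean, for the tested members reported here of 3 lists, ordered by the fitted difference. Most NRF2 targets lie to the right of 0 and most interferon-stimulated and MHC class I genes to the left, against both lines.

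Cytokines and chemokines were higher more often than lower. Of 26 tested (28 listed), 12 were higher and 5 lower, with a median of 0.91 log2. Without the NCI-H2110 p53 siRNA library, 8 were higher and 4 lower, with a median of 0.50. CXCL5, a neutrophil attractant, stood at 27.5 and 42.2 CPM against 0.0370 to 20.5 CPM with median 8.07, and CXCL1 at 47.1 and 42.6 CPM against 1.14 to 18.01 CPM with median 8.15. CXCL16 was higher by 3.22 ± 0.24 log2 and the death ligand TNFSF10 by 2.79 ± 0.32 log2. The alarmin IL33 stood at 2.09 and 2.86 CPM, with 1 count in the 8 others. CX3CL1, which attracts lymphocytes, was lower at 0.157 and 0.0433 CPM against 6.04 to 67.7 CPM with median 26.04, and IL6 and CXCL8 did not pass.

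Some of the widest differences were near all or none. Of 8201 genes at a mean of 10 CPM or more in each of the other lines, 25 had 0 counts in NCI-H2110, 22 of them protein-coding. Among these were SNURF, a small protein of the imprinted 15q11 region (67.8 to 190.1 CPM with median 118 in the others), MECOM, a zinc finger factor of stem cells (33.5 to 77.8 CPM with median 43.8), SLC43A3, a purine carrier (9.84 to 95.8 CPM with median 56.00), and PSPC1, a paraspeckle protein (27.7 to 50.2 CPM with median 37.9). Also at 0 were the sorting nexin SNX7 (23.9 to 38.8 CPM with median 33.2), the exopeptidase DPP4 (5.197 to 57.6 CPM with median 32.7), ZNF827 (18.1 to 30.4 CPM with median 24.8), the nitric oxide synthase NOS3 (13.7 to 46.9 CPM with median 19.3) and CHIC1 (10.2 to 52.00 CPM with median 24.6). Each was at least 121-fold lower than in NCI-H2087 and at least 136-fold lower than in NCI-H441, at a limit of 3 counts in the shallower NCI-H2110 library. In the opposite direction, of 8981 genes at 10 CPM or more in NCI-H2110, 4 had 0 counts in all 8 others: CALCA, the calcium channel subunit CACNB2 (17.3 and 14.6 CPM), the neural zinc finger factor ZIC1 (18.9 and 19.5 CPM) and the antisense RNA DSCAM-AS1 (90.8 and 79.99 CPM).

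Some of the silent genes belong to families that were picked after their values were seen. SNURF overlaps SNRPN and the noncoding SNHG14 on chromosome 15. SNURF and SNHG14 had 0 counts in NCI-H2110 and SNRPN had 3, against 13.5 to 54.8 CPM with median 29.9 for SNRPN and 27.4 to 133 CPM with median 71.2 for SNHG14. ATP10A, next to them, stood at 1 count against 36.04 to 75.1 CPM with median 52.6, while UBE3A (92.5 and 114 CPM), NIPA1 and NIPA2 of the same region did not pass. Of the 6 ARMCX genes of the X chromosome tested, 5 were lower and 4 had 0 counts. ARMCX5 was among the lower genes, at 10.9 and 10.96 CPM against 12.7 to 30.8 CPM with median 20.4. ARMCX1 had 0 counts in NCI-H2110 but was not called, as NCI-H441 stood at 0 to 0.0429 CPM. Imprinted and oncofetal genes of the list were lower in 6 of 12 tested cases (18 listed) and higher in 1. PEG10 stood at 82.3 and 62.8 CPM against 657 to 3381 CPM with median 971, and PEG3 was the higher one (21.3 and 27.3 CPM against 0.302 to 0.983 CPM with median 0.445).

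Cancer-testis antigens, which are silent in most adult tissues, differed by family. Of 8 tested (25 listed), 4 were higher and 2 lower. MAGEA3 and MAGEA6, near-identical copies whose reads may be exchanged, were higher. MAGEA3 stood at 31.1 and 25.1 CPM with 1 count in the 8 others, and MAGEA6 at 38.9 and 31.4 CPM with 2. MAGEA1 and MAGEA12 were higher as well. PRAME had 0 counts in NCI-H2110 against 5.66 to 12.1 CPM with median 8.58, and XAGE1B stood at 0.157 and 0.0867 CPM against 40.4 to 331 CPM with median 128. XAGE1A, its near copy, had 0 counts.

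Other genes with the largest differences have no list in common. CHL1, a neural adhesion molecule, stood at 49.8 and 70.7 CPM with 1 count in the others, the secreted NELL2 at 103 and 85.02 CPM, the guanine deaminase GDA at 69.1 and 112 CPM and the transmembrane protease TMPRSS3 at 39.2 and 33.6 CPM, all against at most 0.0754 CPM. EDIL3, an integrin-binding matrix protein, stood at 299.6 and 454 CPM against 0 to 0.513 CPM with median 0.168. BASP1, a membrane-associated signalling protein, stood at 3038 and 2601 CPM against 53.8 to 224 CPM with median 167.

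Long noncoding RNAs were higher more often than lower, at 633 and 390 of 2319 tested (27.3% and 16.8%), whereas protein-coding genes were higher in 3121 and lower in 3230 of 14020 cases. Pseudogenes (24.3% higher and 15.6% lower of 991 tested) and the remaining types (33.8% and 12.7% of 648) leaned like the long noncoding RNAs. A gene with 0 counts in any library of the other lines cannot be lower by the rule. NEAT1, the scaffold of paraspeckles, stood at 1464 and 2188 CPM in NCI-H2110, at 119.8, 178, 90.7 and 136 CPM in NCI-H2087 and at 133, 150.1, 156.9 and 148 CPM in NCI-H441, a difference of 3.72 ± 0.19 log2. MALAT1, its neighbour on chromosome 11, was higher by 1.83 ± 0.25 log2. CASC15 stood at 21.1 and 18.5 CPM against 0 to 0.226 CPM with median 0.0418, AC020909.2 at 26.2 and 26.4 CPM with 1 count elsewhere and ERVH48-1 at 58.3 and 59.4 CPM against 0 to 0.164 CPM with median 0.0581. UCA1, well expressed in NCI-H441 (438 to 708 CPM), stood at 0.236 and 0.173 CPM in NCI-H2110. SFTA1P, LINC03052 and SNHG14 had 0 counts. Of the 20 long noncoding RNAs of the list tested (28 listed), 6 were higher and 7 lower. Strand was not stated for the counting, so reads of antisense and overlapping genes cannot be told apart.

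Lung tumour suppressors were near the background, with 4 of 20 tested higher and 4 lower. STK11, the kinase that activates AMPK, was lower at −2.94 ± 0.24 log2, with 2.75 and 2.25 CPM against 13.4 to 24.2 CPM with median 20.9. CDKN2B, an inhibitor of CDK4 and CDK6, was higher by 3.24 ± 0.24 log2. Of 17 oncogenes tested (19 listed), 3 were higher and 5 lower. CDK6 was lower at −2.45 ± 0.19 log2 and MYC at −1.49 ± 0.25, and CDK4 was lower at 101 and 78.7 CPM, against 168 to 209 CPM in NCI-H441 and 1864 to 2534 CPM in NCI-H2087. MCL1, an inhibitor of apoptosis, was higher by 2.12 ± 0.32 log2, although its 2 NCI-H2110 libraries differed (519 and 1026 CPM).

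Genes of mitosis were close to the other lines. Of 25 tested, 3 were higher and 5 lower, with a median of 0.18 log2. AURKB, a kinase of the chromosomal passenger complex, was lower at −1.42 ± 0.25 log2 and the ubiquitin ligase subunit UBE2C at −1.24 ± 0.37, and the kinetochore protein NDC80 was higher by 1.39 ± 0.25 log2. MKI67 did not pass (549 and 705 CPM against 388 to 801 CPM with median 524). The counts were 2 and 3 with the control siRNA libraries alone, 1 and 6 with the p53 siRNA libraries alone, and 8 and 5 with the replicate 2 libraries alone. They were 1 and 5 without the NCI-H2110 control library, and 1 and 2 without its p53 siRNA library.

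Protein-coding genes that were higher or lower were spread unevenly over the chromosomes. Of 13999 tested on the autosomes and X, 22.3% were higher and 23.1% lower. The median log2 difference was 0.47 on chromosome 10, 0.40 on 18, 0.30 on 13 and 0.21 on 9, and −0.43 on 16, −0.42 on 11, −0.32 on 21 and −0.27 on 6. On chromosome 10, 36.6% of 528 protein-coding genes tested were higher and 12.5% lower. On chromosome 11, 10.4% of 787 were higher and 35.2% lower, although MUC5B, MUC5AC and CALCA lie there. The noncoding NEAT1 and MALAT1 of chromosome 11 are not among these genes. The longest run of neighbouring tested protein-coding genes in 1 direction held 14 higher genes on chromosome 1, from THBS3 to GON4L. Runs of 13 higher genes covered the killer lectin receptor genes of chromosome 12, some of which overlap, and a stretch of chromosome 5 with AHRR and TRIP13. Chromosome 11 held 2 runs of 13 lower genes, 1 of them from SLC37A4 to RNF26 with the ubiquitin ligase CBL. Of 225 zinc finger genes named ZNF on chromosome 19, 111 (49.3%) were lower and 29 (12.9%) higher, and 24 had 0 counts. Of 210 such genes on other chromosomes, 63 (30%) were lower and 30 (14.3%) higher. The ZNF genes were picked as a family after their values were seen, so these shares are a description.

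**Figure D5:**
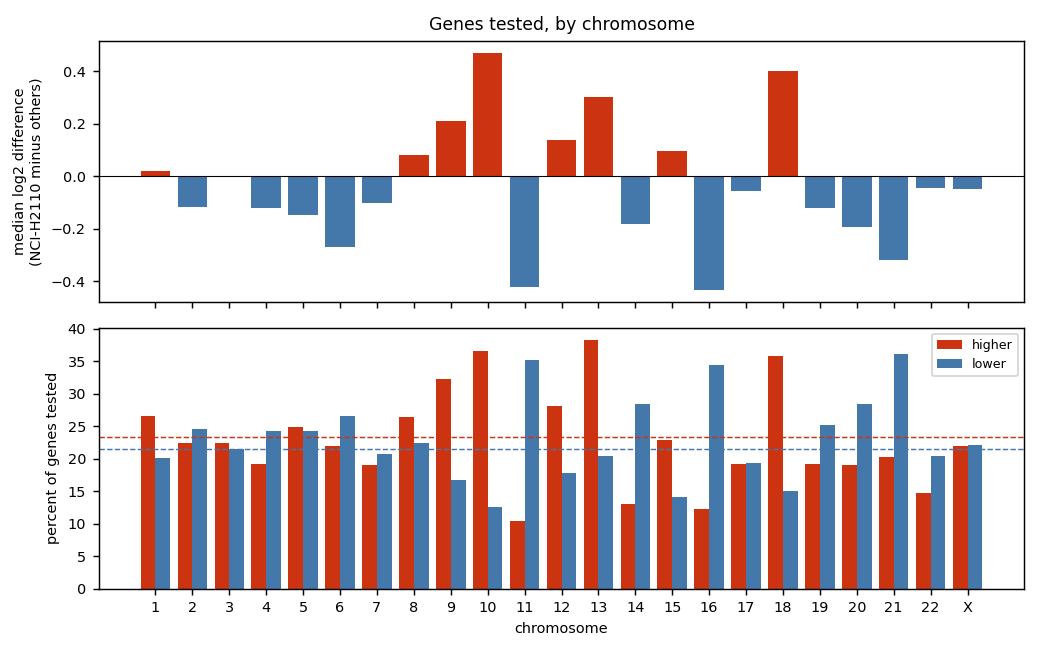
Median log2 difference between NCI-H2110 and the mean of the other lines for the protein-coding genes tested on each chromosome (upper panel). The lower panel gives the percent of them higher or lower, with dashed lines at the shares over all genes tested of every type. Those shares are 23.4% and 21.5%, against 22.3% and 23.1% over the protein-coding genes shown. Chromosomes 10, 13 and 18 stand out with more higher genes, and chromosomes 11, 16 and 21 with more lower genes.

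Over all 17978 genes tested the median absolute log2 difference between the p53 siRNA and control libraries of NCI-H2110 was 0.24, and 94.4% differed by less than 1 log2. The median absolute difference between NCI-H2110 and the other lines was 0.90 over the same genes. In the 4214 higher genes, chosen because both libraries lay apart from the others, these medians were 0.23 and 1.83. The siRNA difference was taken from log2 CPM with a prior count of 2, which shrinks it at low counts. The line difference is the fitted one, which runs wider for undetected genes, so the medians are not on the same scale. The control library alone lay above the 4 control libraries of the other lines in 5858 genes, and in 4755 of them (81.2%) the p53 siRNA library lay above its 4 counterparts too, which held for 32.3% of all genes tested. Of the 5616 genes below in the control arm, 4370 (77.8%) were below in the p53 siRNA arm, against 30.7% of all genes. These arms have 1 NCI-H2110 library each, and no test was made of the difference between them.

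At the edge of the rule the values nearly touched, by less than the last digit printed. SMG8, just inside from above among genes of at least 10 CPM, stood at 26.8 and 22.5 CPM in NCI-H2110 against a highest value of 22.5 CPM in the others, and ATP5MC3, just outside, at 219 and 204 CPM against 204 CPM. COX7B, just inside from below, stood at 117 and 89.5 CPM against a lowest value of 117 CPM, and USE1, just outside, at 10.5 and 7.37 CPM against 10.5 CPM.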

How the data were processed

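The deposited table holds counts per gene, made by the authors from the reads of each library, and Bowtie2, RSEM 1.2.12 and hg19 are named in the submitters' processing notes with no role or order. The role of each and the strand setting are not given in the sources used here. The 57736 gene identifiers were named from a gene name table (39501) and GENCODE 29 (12800), and 5435 have no symbol. Genes with low counts were left out with edgeR's filter, which left 17978 genes with 99.96% of the counts. Lines were compared with edgeR 4.0.16 in R 4.3.3 (TMM scaling, quasi-likelihood test, Benjamini-Hochberg adjustment over all genes tested), with line and siRNA as terms, 6 residual degrees of freedom and a biological coefficient of variation of 22.0%. Alternatives used DESeq2 1.42.0, limma 3.58.1 (voom), library totals, no filter, each siRNA arm alone, the replicate 2 libraries alone, the replicate number as a block and each library left out.

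Library totals of 18336672 to 25810934 counts set a limit of detection of 3 counts per library, which covers counting error only. Deviations of libraries with the same number correlated at 0.534 and 0.595 within lines, and at −0.113 and 0.197 across lines. The numbers were therefore not taken to pair libraries across lines. The correlation within lines was not modelled, so p-values and standard errors may be too small. Replicate libraries differed beyond sampling noise (chi-square per gene of 14.4 to 42.3).

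Genes were named by rule: the 3 markers, the 12 largest differences in each direction at 10 CPM or more, the 6 of highest CPM at 2 log2 or more, up to 4 per list, 3 long noncoding RNAs in each direction and the genes just inside and outside the rule. Further list members are given with their values whether or not they passed. The members and the 32 gene lists were chosen with earlier results of these data known. Gene families looked at apart from the lists, such as the HOXB cluster and the ZNF genes of chromosome 19, were picked after their values were seen. On simulated counts of 17978 genes for this comparison, 73% of changes of 1 log2 and 100% of changes of 2 log2 were recovered. The simulation gave NCI-H2087 and NCI-H441 the same mean for every gene and the same spread to all genes. It changed only a small part of the genes, all well expressed, so these percentages need not carry over to the data. The targeted gene's own level, and the values of some other list members, are not reported here. Promoter windows were taken by symbol from a RefSeq table (GRCh38.p14).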

Additional observations from a re-analysis of the deposited data

How the results depend on the processing

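Under the alternatives run, the higher genes numbered 3517 to 4505 and the lower genes 3174 to 3985, and no gene was called in opposite directions between the result reported and any of them. With each library left out in turn the counts were 3517 to 4300 higher and 3174 to 3985 lower. With the replicate number as a block they were 4087 higher and 3773 lower, against 4214 and 3857 without it, and of the list counts it moved 1 by over 1.5 times, the higher ERK output genes, from 2 to 1. The 140 genes of the naming rule gave 2520 values under 18 alternatives, of which 2493 kept their direction and their side of the threshold, 27 fell short of it and 0 turned. Those that fell short include values of SCG2, SMG8, ATP5MC3, COX7B, USE1 and TPX2. List counts and medians moved more. Those of the junction, epithelial, ERK, MHC class II, mitosis, keratin, cytokine, alveolar type 2 and neuroendocrine lists are given beside their results. Without the NCI-H2110 p53 siRNA library the lower NRF2 targets numbered 1 and the lower xenobiotic genes 0. Without its control library the higher genes numbered 2 in the mesenchymal, imprinted and fibroblast lists and 1 in the ERK list. The small medians of the junction, gut and liver, receptor tyrosine kinase and long noncoding RNA lists changed sign under at least 1 alternative. The cause was not tested. With 1 NCI-H2110 library per arm, the spread of that line is assumed to be that of the others.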
